A study of Mus musculus with 40 samples.

Results

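The response of the mouse liver to WUSTL0717, an oral agonist of the liver X receptors (LXRs) made to act in the intestine, was examined after small bowel resection (SBR) by setting 5 liver libraries of SBR mice given WUSTL0717 against 8 of SBR mice given vehicle. These 13 libraries, chosen by their sample titles, are part of 40 in the series, of which 18 are from liver. All mice were wild type C57BL/6 males operated on at 8 weeks of age. The labels give the resection as 50 to 60% of the small bowel, and the study's methods name a larger extent. From 3 weeks after surgery, WUSTL0717 at 30 mg/kg or vehicle was given by mouth every day for 7 weeks, and the median right lobe of the liver was taken. The 5 sham-operated, vehicle-treated liver libraries served as a reference, and the libraries analysed here hold no sham group with WUSTL0717, so its effect without resection is not described. The treated and the sham libraries are set against the same 8 vehicle libraries, and sham levels are given only as a description. No label states that each library is a separate mouse, and the p-values measure the spread between these libraries. The comparison asks which liver transcripts differ after resection when an agonist meant for the gut is given.

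LXRs are nuclear receptors for oxysterols. They switch on genes of cholesterol efflux such as *Abca1* and *Abcg1* and, through *Srebf1*, genes of fatty acid synthesis, and an LXR agonist that reaches the liver raises hepatic fat for that reason. After massive bowel resection the liver is prone to cholestasis, inflammation and fibrosis, in which stellate cells and portal fibroblasts lay down fibrillar collagen, bile duct cells multiply, and hepatocytes lose part of their specialized gene expression. Among the most abundant products of a male mouse hepatocyte are the major urinary proteins (MUPs), carriers of pheromones made under pulsatile growth hormone through the transcription factor STAT5B.

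Values are log2 TPM, read abundance scaled to gene length and library total, after the authors' batch correction, and all changes are WUSTL0717 minus vehicle on that log2 scale. The study's methods place the correction between experimental groups and do not name the batches. The values read as if intestine was 1 batch and liver the other, drawn together gene by gene. In 99.4% of genes the liver and intestinal means lay within 1, and the intestinal gene *Sis* is listed at a mean of 4.74 and *Alb* at 9.35 in liver. Levels were therefore not compared between tissues or between genes, and a change may be stretched or shrunk for a given gene. Read depth is unknown. Correlations between pairs of liver libraries lay between 0.964 and 0.985 within the groups compared and between 0.947 and 0.980 across them. The median log2 TPM over tested genes was 3.44 to 3.74 in the treated libraries and 3.14 (library 2) to 3.78 in the vehicle libraries, and the hepatocyte marker *Apoa1* read between 13.09 and 14.41 in the 13 libraries. WUSTL0717 library 4 was the only treated library that correlated more closely with the vehicle mean (0.986) than with the treated mean (0.981).

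Of 15901 genes with a mean of at least 1 over the 18 liver libraries, 652 (4.1%) passed an adjusted p under 0.05 in limma, a moderated linear model fitted to all 3 liver groups. Of these, 229 (1.44%) were higher and 423 (2.66%) lower with WUSTL0717, and they are the genes called changed here. Subtracting each library's own median raised the count to 3133 (19.7%), 1830 higher and 1303 lower, so the share of calls that were higher went from 35.1% to 58.4%. That share was 48.8% after quantile normalization (1286 higher, 1349 lower), 22.1% with library weights (623 higher, 2196 lower) and 22.8% without WUSTL0717 library 4 (245 higher, 830 lower). The median change over all genes was 0.02 before and 0.03 after centring, and 651 of the 652 genes were called both ways. The study's kind of test, an unmoderated two-sample test on the 13 libraries, called 0 genes on the values as deposited, with a smallest adjusted p of 0.0611 and 2223 genes at an unadjusted p under 0.05 (2738 in limma). The same test called 2440 on centred values, a combination chosen after seeing the data, and 629 of these were among the 652. Left out in turn, WUSTL0717 libraries 1, 2 and 3 took the limma count to 176, 113 and 93, vehicle library 1 took it to 408 and WUSTL0717 library 4 took it to 1075, and the other 8 libraries left it between 444 and 933. Every called gene named below lost its call without WUSTL0717 library 2 or 3, unless it is said to have kept its call in every such fit, and every such gene with an adjusted p above 0.03 lost it without 1 or more vehicle libraries too.

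In 196 genes (1.23%) every treated library was above every vehicle library, and in 49 (0.308%) every one was below. The plot of gene lists gives the size and direction of the change in each gene group.

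**Figure D1:**
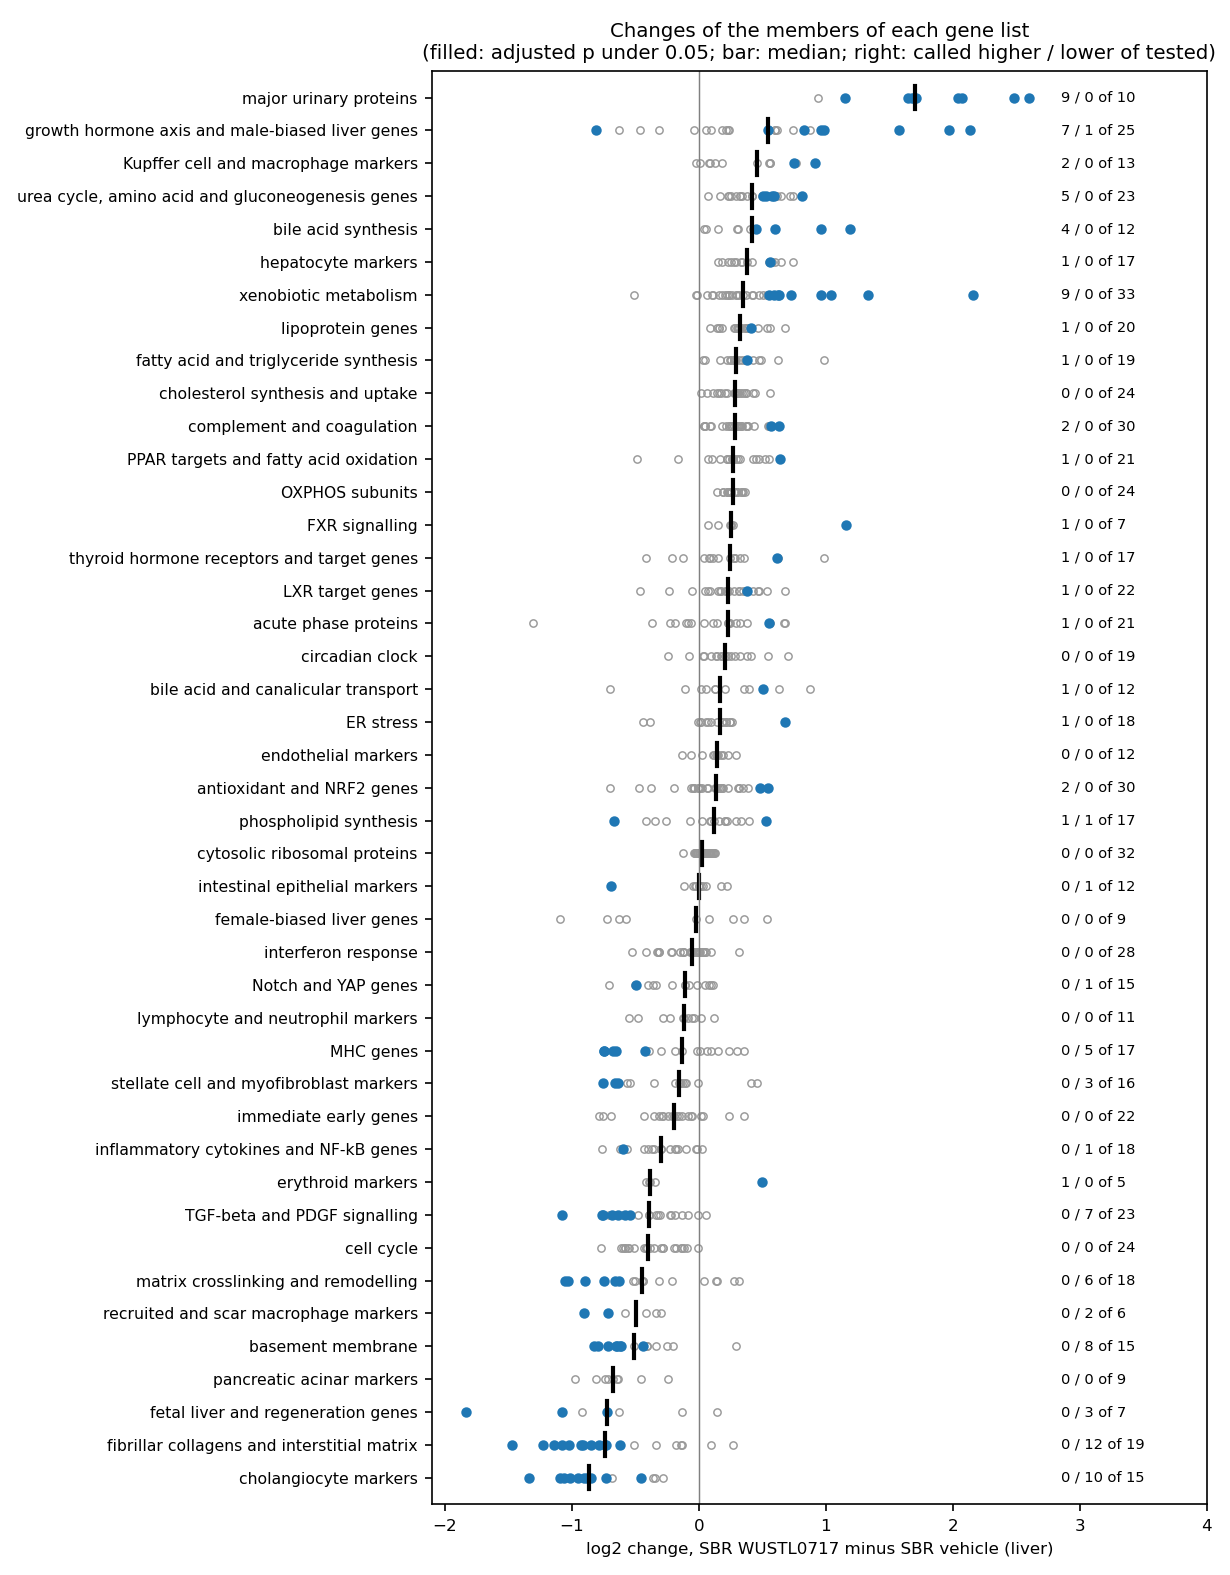
Change of each member of each gene list, in log2 units on the horizontal axis, as SBR WUSTL0717 minus SBR vehicle in liver. Filled points passed an adjusted p under 0.05 in limma, open points did not, black bars are list medians, and the counts at right are members called higher and lower of those tested; the MUP list has the highest median (1.70) and the cholangiocyte list the lowest (-0.87).

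The MUP list had the highest median change of any list. Of the 10 MUP genes tested, 9 were called higher and 0 lower, the list's median change was 1.70 against 0.02 over all tested genes (0.86 with a pseudocount of 5 and 3.74 with one of 0.1), and in those 9 genes the treated and vehicle libraries did not overlap. The study singled out this family in these same libraries, so the count is not independent evidence of its direction. Of 22 MUP genes listed, 12 had no row in the table used here.

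*Mup10* (chromosome 4, 60578260 to 60582199, in GRCm38) read 3.77, 3.03, 3.68, 2.20 and 3.48 in the 5 treated libraries, whereas the vehicle libraries lay between -0.24 and 1.81 (median 0.71) and the sham libraries between 3.89 and 4.42 (median 4.09). The treated libraries were all above the vehicle libraries and all below the sham libraries, with library 4 the lowest. The change was 2.48 (standard error, SE, 0.32, limma adjusted p = 0.00161), and an exact two-sided permutation test gave p = 0.000777, the smallest that 5 libraries against 8 allow. For *Mup3* (chromosome 4, 62083476 to 62087342) the treated values were 6.21, 5.83, 6.11, 5.15 and 5.85, the vehicle values lay between 3.41 and 4.89 (median 3.96) and the sham values between 7.63 and 7.87 (median 7.72). Its change was 1.71 (SE 0.23, limma adjusted p = 0.00161). *Mup22* rose by 2.60 and *Mup21* (chromosome 4, 62147932 to 62150863) by 1.69 (limma adjusted p = 0.00161 and 0.00401).

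Vehicle libraries of *Mup10* and *Mup22*, and of *Mup7*, *Mup11*, *Mup14*, *Mup15* and *Mup17*, reached down to 0 or below, where a batch-corrected log2 TPM cannot be read as a level, so the sizes of these changes are uncertain. In the last 5 of these genes every treated library was below every sham library except in *Mup14*. *Mup7* for example read 3.13, 0.90, 1.02, 0.60 and 1.63 with WUSTL0717, between -0.41 and 0.20 (median -0.30) with vehicle and between 4.97 and 7.39 (median 6.86) after sham surgery. The rises of these 5 genes lay between 1.15 and 2.07, with limma adjusted p between 0.0078 and 0.0217. *Mup20*, which encodes the male pheromone darcin, was 7.60, 5.61, 5.94, 6.86 and 7.04 in treated and 5.04 to 6.29 (median 5.50) in vehicle libraries, which overlapped, and it did not pass (change 0.94, SE 0.28, limma adjusted p = 0.0701). Turned back into TPM and summed over the 10 genes, MUP transcripts came to 136 to 352 with WUSTL0717, 48.3 to 110 with vehicle and 502 to 1247 after sham surgery. With any 1 library left out, between 7 and 9 of the 10 genes were called (7 without WUSTL0717 library 1 or 3), and *Mup10*, *Mup3*, *Mup22*, *Mup21*, *Mup11*, *Mup14* and *Mup17* kept their call in every such fit.

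MUP genes are near copies of each other, which limits what each row means. Only 20.6% of the 75-base windows of *Mup14* transcripts and 25.7% of those of *Mup10* occur in no other annotated transcript of GENCODE M21, against 94.6% for *Mup3* and 89.7% for *Mup21*. For *Mup15* and *Mup22* the share is 0%, so the reads behind these rows could be those of a sister gene. *Mup3* and *Mup21* are the rows that come closest to single genes. The promoters are alike too. RefSeq (GRCm38.p6) gave 1 promoter each for 8 of the 10 genes, and of the 250 bases before the start site, pairs of genes were 77.2% to 98.7% identical over the columns that aligned, with overhanging ends left out (115 to 251 columns a pair). The sequences of *Mup3*, *Mup21*, *Mup10* and *Mup17* are printed 5′ to 3′ on the gene's own strand, to show what these genes share, and all lie on the minus strand of chromosome 4, at chr4:62087318-62087567, chr4:62150842-62151091, chr4:60582156-60582405 and chr4:61595833-61596082.
Mup3: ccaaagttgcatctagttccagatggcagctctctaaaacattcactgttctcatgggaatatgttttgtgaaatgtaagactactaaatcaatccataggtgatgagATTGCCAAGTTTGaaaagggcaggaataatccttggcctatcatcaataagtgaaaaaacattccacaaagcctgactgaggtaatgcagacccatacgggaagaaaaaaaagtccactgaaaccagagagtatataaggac
Mup21: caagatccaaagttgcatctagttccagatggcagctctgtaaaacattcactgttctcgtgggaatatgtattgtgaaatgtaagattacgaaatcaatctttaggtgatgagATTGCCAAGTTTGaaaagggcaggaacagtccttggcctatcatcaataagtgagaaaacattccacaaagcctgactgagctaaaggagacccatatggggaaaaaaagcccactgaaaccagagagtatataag
Mup10: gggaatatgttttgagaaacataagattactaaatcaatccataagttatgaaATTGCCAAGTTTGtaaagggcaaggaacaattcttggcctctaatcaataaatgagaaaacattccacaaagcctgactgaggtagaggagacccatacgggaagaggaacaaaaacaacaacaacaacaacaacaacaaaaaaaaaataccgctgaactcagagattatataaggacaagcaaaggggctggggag
Mup17: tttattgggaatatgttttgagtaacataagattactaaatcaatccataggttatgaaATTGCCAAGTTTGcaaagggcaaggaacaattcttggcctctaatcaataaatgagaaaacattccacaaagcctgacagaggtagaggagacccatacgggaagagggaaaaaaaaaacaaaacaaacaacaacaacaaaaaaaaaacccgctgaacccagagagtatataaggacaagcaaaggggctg
Capitals mark ATTGCCAAGTTTG, the longest run of letters found in all 8 windows. Among 12379 promoters of tested genes, searched on both strands, it occurred in 8 (0.0646%), the MUP genes themselves. The STAT5 motif TTCNNNGAA, present in 5.85% of those promoters, was in none of the 8 MUP windows, which says only that these letters are not in this stretch.

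**Figure D2:**
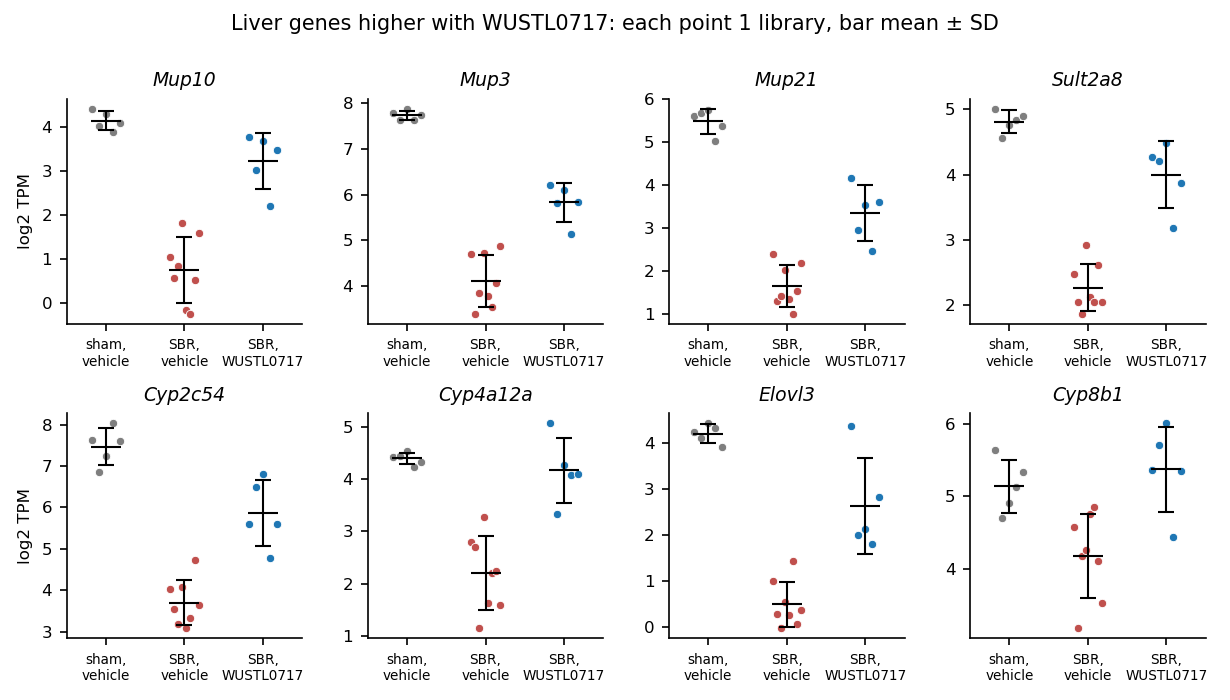
Log2 TPM of 8 genes in each liver library (points), by group, with group mean and SD (bars; n = 5, 8 and 5). For *Mup10*, *Mup3*, *Mup21*, *Sult2a8*, *Cyp2c54*, *Cyp4a12a* and *Elovl3* all 5 treated libraries lie above all 8 vehicle libraries, and for *Cyp8b1* the groups overlap.

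Of 25 other male-biased and growth hormone-regulated liver genes tested, 7 were called higher and 1 lower, with a median change of 0.55. *Elovl3*, which elongates very long chain fatty acids, read 4.38, 2.00, 2.14, 1.81 and 2.83 with WUSTL0717, between -0.02 and 1.43 (median 0.34) with vehicle and between 3.92 and 4.44 (median 4.24) after sham surgery. Treated library 1 stood at the sham level and the other 4 between the vehicle and sham ranges. As the vehicle values reach below 0, the size of the change is uncertain, and it was 2.14 (SE 0.33, limma adjusted p = 0.0041). *Cyp4a12a* (chromosome 4, 115299046 to 115332815), the androgen-dependent arachidonic acid hydroxylase, read 5.07, 3.33, 4.26, 4.08 and 4.10 against 1.15 to 3.27 (median 2.22) in vehicle libraries, a change of 1.97 (SE 0.30, limma adjusted p = 0.00401). Its sham libraries lay between 4.24 and 4.54 (median 4.43), within the range of the treated ones.

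*Cyp4a12b* rose by 1.57, *Susd4* by 0.98, the oxysterol hydroxylase *Cyp7b1* by 0.96, *Cyp2d9* by 0.83 and the growth hormone receptor *Ghr* by 0.55 (limma adjusted p between 0.00679 and 0.0227). *Cyp4a12a* and *Cyp4a12b* are close paralogs, so their reads may be shared. The 1 gene that fell was *Socs2*, itself induced by growth hormone as a feedback inhibitor of its receptor, with 2.49, 2.59, 2.80, 3.26 and 2.37 in treated and 3.05 to 4.21 (median 3.49) in vehicle libraries and a change of -0.81 (SE 0.17, limma adjusted p = 0.0135). Outside the list, *Srd5a1*, the steroid 5-alpha-reductase, rose by 0.73 (limma adjusted p = 0.00616). Of 9 female-biased genes limma called 0, 4 had an unadjusted p under 0.05, and their median change was -0.02. Without WUSTL0717 library 2 the male-biased list held 5 calls, and *Elovl3*, *Cyp4a12a*, *Cyp4a12b*, *Cyp7b1*, *Cyp2d9* and *Srd5a1* kept theirs in every fit without 1 library. The Y-linked *Ddx3y* lay between 3.49 and 4.65 in the 13 libraries, as the label of male mice has it.

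Drug- and steroid-metabolizing enzymes were called higher in 9 of 33 cases and lower in 0, with a median change of 0.35. *Cyp2c54* (chromosome 19, 40037940 to 40073827), an arachidonic acid epoxygenase, read 5.61, 6.48, 6.81, 4.79 and 5.60 with WUSTL0717, between 3.08 and 4.72 (median 3.59) with vehicle and between 6.85 and 8.04 (median 7.60) after sham surgery. All treated libraries stood above the vehicle range and below the sham range, and the change was 2.16 (SE 0.31, limma adjusted p = 0.00234). *Cyp2c50* rose by 1.04, *Cyp2f2* by 0.96, the glucuronosyltransferase *Ugt2b1* by 0.73 and the carboxylesterases *Ces1e*, *Ces1f* and *Ces2a* by 0.63, 0.59 and 0.56 (limma adjusted p between 0.00609 and 0.0303).

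*Cyp2b10*, the classic target of the xenobiotic receptor CAR, did not follow the pattern of lying between vehicle and sham. Its treated values were 3.64, 3.28, 4.10, 4.37 and 4.89, above the sham range throughout (1.40 to 2.54, median 1.68), while vehicle libraries lay between 1.91 and 4.24 (median 2.46). The change was 1.33 (SE 0.34, limma adjusted p = 0.0324), and it stayed called in 6 of the 13 fits without 1 library (highest limma adjusted p 0.0974 without WUSTL0717 library 3; lost without WUSTL0717 libraries 1, 2, 3 and 5 and vehicle libraries 1, 7 and 8). The gene with the smallest p of all, *Sult2a8* (chromosome 7, 14410686 to 14446769), encodes a sulfotransferase for bile acids. It read 4.28, 4.20, 4.48, 3.18 and 3.87 with WUSTL0717, between 1.87 and 2.93 (median 2.09) with vehicle and between 4.56 and 5.01 (median 4.83) after sham surgery, a change of 1.73 (SE 0.20, limma adjusted p = 0.000741). *Fitm1*, a lipid droplet protein, rose by 1.27 and *Nat8f5* by 0.89 (limma adjusted p = 0.00234 and 0.0062). Without WUSTL0717 libraries 1, 2 and 3 in turn the enzyme list held 5, 4 and 4 calls, and *Cyp2c54*, *Cyp2c50*, *Cyp2f2*, *Ugt2b1*, *Sult2a8*, *Fitm1* and *Nat8f5* kept their call in every fit without 1 library.

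Of 12 genes of bile acid synthesis tested, 4 were called higher and 0 lower, and all 12 changes were positive with a median of 0.42. *Cyp8b1*, the sterol 12-alpha-hydroxylase that sets the share of cholic acid, read 5.36, 5.70, 6.01, 4.44 and 5.36 with WUSTL0717 and 3.18 to 4.85 (median 4.22) with vehicle. Library 4 was inside the vehicle range and the other 4 above it. The sham libraries lay between 4.70 and 5.64 (median 5.13), and the change was 1.19 (SE 0.28, limma adjusted p = 0.0218; 0.0942 without WUSTL0717 library 3). *Cyp7b1* and *Cyp27a1*, enzymes of the alternative pathway, rose by 0.96 and 0.45, and *Slc27a5*, a bile acid-CoA ligase, by 0.60 (limma adjusted p between 0.00679 and 0.0352). *Cyp7a1*, the rate-limiting enzyme of the classical pathway, was 3.60, 3.93, 4.68, 3.88 and 3.41 in treated and 2.78 to 4.17 (median 4.07) in vehicle libraries, with a change of 0.15 (SE 0.25, limma adjusted p = 0.846). The list held 2, 1 and 1 calls without WUSTL0717 libraries 1, 2 and 3 in turn.

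*Nr0b2*, which encodes the repressor SHP and is a target of the bile acid receptor FXR, read 5.96, 5.48, 5.54, 5.39 and 5.92 with WUSTL0717, above every vehicle value (3.18 to 5.13, median 4.60) and within the sham range (4.66 to 6.15, median 5.46). Its change was 1.16 (SE 0.30, limma adjusted p = 0.0358; 0.11 without WUSTL0717 library 1). Of 12 transporters of bile acids and bile lipids, only the sinusoidal uptake carrier *Slco1b2* passed, with a change of 0.50 (limma adjusted p = 0.0341). The bile salt export pump *Abcb11* was 5.08, 4.81, 4.74, 4.92 and 5.01 in treated and 3.96 to 4.84 (median 4.65) in vehicle libraries. Its change of 0.36 (SE 0.13) did not pass on deposited values (limma adjusted p = 0.137) and did on centred ones (limma adjusted p = 0.00273).

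In the list of urea cycle, amino acid and gluconeogenesis genes, 5 of 23 were called higher, 0 lower, and all 23 changes were positive (median 0.42). *Otc*, which encodes ornithine transcarbamylase, read 6.46, 6.56, 6.66, 6.35 and 6.45 with WUSTL0717 and 5.29 to 6.24 (median 6.03) with vehicle, with no overlap, and rose by 0.57 (SE 0.12, limma adjusted p = 0.0163). *Sds* rose by 0.81, *Tdo2* by 0.59, *Gls2* by 0.53 and the gluconeogenic phosphatase *Fbp1* by 0.51 (limma adjusted p between 0.0226 and 0.0382), whereas *Pck1* (change 0.74, limma adjusted p = 0.0702) did not pass. It held 2, 0 and 0 calls without WUSTL0717 libraries 1, 2 and 3 in turn, and with all libraries 17 of the 23 had an unadjusted p under 0.05. Complement and coagulation factors, secreted by hepatocytes, gave 2 calls of 30 (6.67%, near the 4.1% of all tested genes), *C9* (0.63) and *C8b* (0.57), although all 30 changes were positive (median 0.28), and the list held 0, 0 and 0 without WUSTL0717 libraries 1, 2 and 3 and 4 without vehicle library 4 or 8. Of 17 hepatocyte markers 1 (5.88%), *Hpd*, was called (0.56, limma adjusted p = 0.0316), and the median was 0.38. Summed hepatocyte marker TPM came to 18679 to 27022 with WUSTL0717, 11046 to 21370 with vehicle and 16998 to 22117 after sham surgery, and vehicle library 2 held the lowest sum. In tissue RNA, fewer cells of a type and less RNA per cell cannot be told apart, and the part of the hepatocyte share in the rises above was not tested.

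Of 19 genes of the fibrillar and interstitial matrix tested, 12 were called lower and 0 higher, with a median change of -0.74. The study names *Col1a1*, *Col3a1* and some other genes of these groups from the same libraries, so their direction is not independent evidence. *Col1a1* (chromosome 11, 94936224 to 94953042), encoding the alpha-1 chain of type I collagen, read 5.49, 5.49, 5.08, 6.37 and 5.91 with WUSTL0717, between 6.52 and 7.60 (median 7.20) with vehicle and between 3.45 and 4.60 (median 3.58) after sham surgery. Every treated library was below the lowest vehicle library and above the highest sham library. The change was -1.47 (SE 0.23, limma adjusted p = 0.00401). It stayed called with any 1 of the 13 libraries left out (highest limma adjusted p 0.0207 without WUSTL0717 library 3). The exact two-sided permutation p was 0.000777, again the smallest possible, and again it only restates the lack of overlap.

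*Col3a1* (chromosome 1, 45311538 to 45349706), the chain of type III collagen, read 5.97, 5.76, 5.85, 6.96 and 6.27 with WUSTL0717 and 6.66 to 7.72 (median 7.45) with vehicle. Treated library 4 reached into the vehicle range and the other 4 lay below it, and the change was -1.14 (SE 0.20, limma adjusted p = 0.00722). *Col1a2* read 4.62, 4.47, 4.47, 5.43 and 4.81 against 5.23 to 6.18 (median 5.91) and a change of -1.02 (SE 0.19, limma adjusted p = 0.00919). Elastin (*Eln*) fell by 1.23, *Col6a3* by 1.08, *Col5a2* by 0.93, lumican (*Lum*) by 0.91 and fibrillin-1 (*Fbn1*) by 0.85 (limma adjusted p between 0.0062 and 0.0429). Decorin (*Dcn*, change -0.18) and *Col14a1* (-0.13), also matrix genes of fibroblasts, did not pass (limma adjusted p = 0.729 and 0.716). Summed TPM of the 19 genes came to 649 to 1019 with WUSTL0717, 846 to 1437 with vehicle and 370 to 501 after sham surgery. Without WUSTL0717 libraries 1, 2 and 3 in turn the list held 7, 6 and 5 calls and without library 4 it held 13, and *Col1a1*, *Col3a1*, *Col1a2*, *Eln* and *Col5a2* kept their call in every fit without 1 library.

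Since *Col1a2* and *Col3a1* fell together, the 250 bases before their start sites (RefSeq, GRCm38.p6, plus strand, chr6:4505368-4505617 and chr1:45311288-45311537) are given for comparison, with matches to 3 core promoter motifs, CCAAT, the Sp1 box GGGCGG and TATAAA, in capitals.
Col1a2: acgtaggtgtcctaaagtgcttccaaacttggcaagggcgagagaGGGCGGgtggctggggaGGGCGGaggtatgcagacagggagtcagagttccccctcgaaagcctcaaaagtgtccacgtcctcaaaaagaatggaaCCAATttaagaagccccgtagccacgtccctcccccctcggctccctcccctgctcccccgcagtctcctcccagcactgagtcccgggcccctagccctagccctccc
Col3a1: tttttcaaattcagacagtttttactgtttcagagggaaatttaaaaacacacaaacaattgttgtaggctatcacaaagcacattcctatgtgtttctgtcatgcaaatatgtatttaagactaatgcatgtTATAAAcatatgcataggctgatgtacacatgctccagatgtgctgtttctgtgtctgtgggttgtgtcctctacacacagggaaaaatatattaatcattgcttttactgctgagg
The *Col1a2* window holds 2 Sp1 boxes and 1 CCAAT, and that of *Col3a1* holds 1 TATAAA, 117 bases before the start, and neither of the others. Searched on both strands, CCAAT occurs in 34.3%, GGGCGG in 54.7% and TATAAA in 7.44% of the promoters of tested genes, and no motif of the 3 is in both windows.

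**Figure D3:**
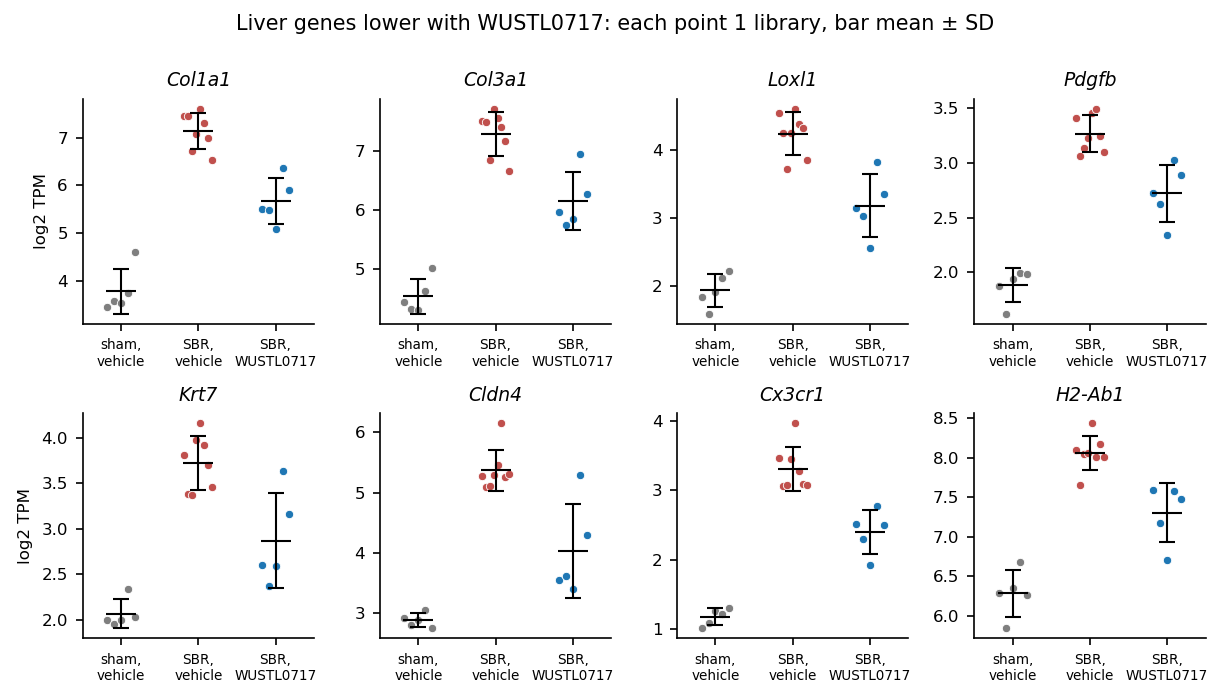
Log2 TPM of 8 genes in each liver library (points), by group, with group mean and SD (bars; n = 5, 8 and 5). In all 8 the treated mean lies between the vehicle and sham means; treated and vehicle libraries are fully apart for *Col1a1*, *Pdgfb*, *Cx3cr1* and *H2-Ab1* and overlap for *Col3a1*, *Loxl1*, *Krt7* and *Cldn4*.

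Of 15 basement membrane genes 8 were called lower and 0 higher (median -0.51), among them *Col4a1* (-0.65), *Col4a2* (-0.62) and *Lama5* (-0.79), with limma adjusted p between 0.0135 and 0.0175. Without WUSTL0717 libraries 1, 2 and 3 in turn this list held 2, 1 and 0 calls and without library 5 it held 4, while vehicle libraries 1 and 5 took it to 4 and vehicle libraries 4, 6, 7 and 8 to 5. Of 18 crosslinking and remodelling genes 6 were called lower and 0 higher (median -0.45). *Loxl1*, which crosslinks elastin, read 3.14, 3.02, 2.57, 3.83 and 3.36 with WUSTL0717, between 3.72 and 4.60 (median 4.29) with vehicle and between 1.60 and 2.22 (median 1.91) after sham surgery, with a change of -1.06 (SE 0.18, limma adjusted p = 0.00689). *Mmp2* changed by -1.03, *Adamts2* by -0.75, *Loxl2* by -0.63, and the protease inhibitors *Timp1* and *Timp2* by -0.90 and -0.66 (limma adjusted p between 0.0122 and 0.0281). Without WUSTL0717 libraries 1, 2 and 3 in turn the list held 3, 1 and 1 calls and without library 4 it held 10, and *Loxl1* kept its call in every such fit.

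Among ligands, receptors and binding proteins of TGF-beta and PDGF, which drive stellate cell activation, 7 of 23 were called lower and 0 higher, and 22 changes were negative (median -0.40). The ligand *Pdgfb* (chromosome 15, 79995874 to 80014977) read 2.72, 2.63, 2.34, 3.03 and 2.89 with WUSTL0717 and 3.06 to 3.49 (median 3.24) with vehicle, with no overlap, and changed by -0.55 (SE 0.12, limma adjusted p = 0.0151). It was called in 11 of the 13 fits without 1 library (limma adjusted p 0.0659 without WUSTL0717 library 3, and lost without library 2 too). Its receptor *Pdgfrb* changed by -0.64, *Pdgfd* by -0.68, *Tgfb3* by -0.77 and the latent TGF-beta binding proteins *Ltbp2* and *Ltbp3* by -1.08 and -0.75 (limma adjusted p between 0.00728 and 0.029).

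*Ltbp1* read 2.88, 2.88, 2.64, 3.53 and 3.05 with WUSTL0717 and 3.12 to 4.06 (median 3.55) with vehicle, which overlapped. It passed by a small margin (change -0.58, SE 0.16, limma adjusted p = 0.0413), in 4 of the 13 fits without 1 library (lost without WUSTL0717 libraries 1, 2, 3 and 5 and vehicle libraries 1, 4, 5, 6 and 7; highest limma adjusted p 0.157 without WUSTL0717 library 3). *Tgfb1*, the main profibrotic cytokine, was 3.77, 3.63, 3.07, 3.76 and 3.90 in treated and 3.57 to 4.19 (median 4.00) in vehicle libraries. Its change of -0.32 (SE 0.13) did not pass (limma adjusted p = 0.18), nor did it with each library centred (limma adjusted p = 0.0519), and the exact two-sided permutation p, unadjusted, was 0.028. Without WUSTL0717 libraries 1, 2 and 3 in turn the list held 3, 2 and 2 calls, without library 5 it held 4 and without library 4 or vehicle library 2 it held 11, and *Ltbp2* and *Ltbp3* kept their call throughout.

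Of 16 markers of stellate cells and myofibroblasts, which make much of this matrix, 3 were called lower, *Cygb* (-0.76), *Pdgfrb* and *Fbln1* (-0.66), 0 were called higher, and the median was -0.15. The smooth muscle actin gene *Acta2*, the usual mark of a myofibroblast, was 5.09, 4.59, 4.75, 5.44 and 6.42 with WUSTL0717 and 4.63 to 6.20 (median 5.35) with vehicle (change -0.11, SE 0.30, limma adjusted p = 0.924), and desmin (*Des*) had a change of -0.16 (limma adjusted p = 0.616). Summed marker TPM was 341 to 505 with WUSTL0717, 319 to 558 with vehicle and 242 to 378 after sham surgery, and the list held 0 calls without WUSTL0717 library 1, 2 or 3. The part of stellate cell number in the fall of the matrix genes was not tested.

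Of 15 cholangiocyte markers tested, 10 were called lower and 0 higher, and all 15 changes were negative, with a median of -0.87, the lowest of any list. *Cldn4* (chromosome 5, 134945119 to 134946934), a tight junction claudin of bile duct epithelium, read 3.55, 3.61, 3.41, 5.29 and 4.29 with WUSTL0717, between 5.09 and 6.15 (median 5.28) with vehicle and between 2.75 and 3.05 (median 2.88) after sham surgery. Treated library 4 sat inside the vehicle range and the other 4 below it, and the change was -1.34 (SE 0.24, limma adjusted p = 0.0082). The duct transcription factor *Sox9* was 3.83, 3.73, 2.97, 3.96 and 3.94 in treated libraries, all below the vehicle values (4.26 to 5.00, median 4.65), and changed by -0.95 (SE 0.18, limma adjusted p = 0.0092).

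*Krt7*, keratin 7, read 2.60, 2.37, 2.59, 3.63 and 3.16 with WUSTL0717, between 3.37 and 4.16 (median 3.75) with vehicle and between 1.95 and 2.34 (median 2.01) after sham surgery, a change of -0.85 (SE 0.18, limma adjusted p = 0.0169; 0.0711 without WUSTL0717 library 3). *Spp1*, which encodes osteopontin and is made by duct cells and macrophages, changed by -1.06, *Epcam* by -1.10, *Bicc1* by -1.02 and *Pkhd1* by -0.90 (limma adjusted p between 0.0094 and 0.0183). *Krt19* (-0.68, limma adjusted p = 0.209) did not pass. Summed over the 15 markers, TPM came to 2009 to 4417 with WUSTL0717, 2248 to 4701 with vehicle and 818 to 1376 after sham surgery, and the highest treated sum was that of library 4. The list held 3, 3 and 3 calls without WUSTL0717 libraries 1, 2 and 3 in turn and 12 without library 4, and *Cldn4*, *Sox9* and *Bicc1* kept their call in every such fit. Whether other falls followed the share of duct cells was not tested. *Spint1* (chromosome 2, 119237362 to 119249527), an epithelial protease inhibitor outside the list, read 5.20, 4.85, 4.88, 5.92 and 5.15 with WUSTL0717 against 5.94 to 6.61 (median 6.32) with vehicle, a change of -1.06 (SE 0.16, limma adjusted p = 0.00322).

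The genes that fell with the smallest p and no overlap between groups also included several without a place in these lists. *Wnk2* (chromosome 13, 49036303 to 49148014), a kinase that regulates ion cotransport, read 2.78, 2.78, 2.46, 3.55 and 2.699 with WUSTL0717, between 3.66 and 4.40 (median 4.00) with vehicle and between 1.90 and 2.15 (median 1.94) after sham surgery, a change of -1.18 (SE 0.16, limma adjusted p = 0.00161). *Mtcl1*, a microtubule crosslinker, changed by -0.82, *Svep1*, a secreted matrix protein, by -0.95, *Palm* by -0.84, *Dnm1* by -0.65, *Stk32c* by -0.51, *Ctxn1* by -0.66, *Rnf208* by -0.86, *Cited4* by -0.75, *Hpca* by -0.55 and *H1f10* by -0.60, with limma adjusted p between 0.00161 and 0.0112. All of these except *H1f10* stayed called with any 1 library left out, as did *Spint1*, and *H1f10* had a limma adjusted p of 0.052 without WUSTL0717 library 3. *Gbp2b* (0.56) and *Cyp2u1* (1.02), chosen in the same way among genes that rose, had limma adjusted p = 0.0062 and stayed called as well.

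Of 13 markers of resident Kupffer cells and macrophages, 2 were called higher, 0 lower, and 12 changes were positive (median 0.46). *Clec4f*, specific to Kupffer cells, was 3.84, 3.86, 4.05, 4.00 and 4.09 in treated and 2.49 to 4.11 (median 3.41) in vehicle libraries (change 0.75, SE 0.21, limma adjusted p = 0.0459), and the scavenger receptor *Cd163* was 2.32, 2.72, 2.73, 2.43 and 2.80 against 0.64 to 2.64 (median 1.69) (change 0.91, SE 0.24, limma adjusted p = 0.038). The groups overlapped in both genes. *Clec4f* kept its call only without vehicle library 6 or 8 and *Cd163* without WUSTL0717 library 4 or vehicle library 2, 6, 7 or 8, and the highest limma adjusted p were 0.131 without WUSTL0717 library 3 and 0.118 without WUSTL0717 library 3. The list held 5 calls without vehicle library 6 and 3 without vehicle library 8. It held 0 without WUSTL0717 library 2, 3 or 5 or vehicle library 1, 3, 4 or 5, and 1 without WUSTL0717 library 1 or 4 or vehicle library 2 or 7.

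Markers of recruited and scar-associated macrophages were negative in all 6 genes tested, 2 of them called lower (median -0.50), and 1 without WUSTL0717 library 1, 2 or 3. The fractalkine receptor *Cx3cr1* (chromosome 9, 119901616 to 120069879) read 2.51, 2.29, 1.93, 2.77 and 2.50 with WUSTL0717, between 3.06 and 3.97 (median 3.19) with vehicle and between 1.01 and 1.30 (median 1.22) after sham surgery, with no overlap between treated and vehicle, and a change of -0.91 (SE 0.15, limma adjusted p = 0.00635) that kept its call in every fit without 1 library. *Itgax* (CD11c) changed by -0.72 (SE 0.16, limma adjusted p = 0.0196). *Gpnmb*, 3.01, 2.10, 2.01, 3.04 and 3.19 in treated and 2.72 to 3.61 (median 2.97) in vehicle libraries, did not pass (change -0.42, limma adjusted p = 0.293).

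Of 17 MHC genes, 5 were called lower and 0 higher on deposited values, and the 5 are all of class II antigen presentation: *H2-Ab1* (-0.75), *H2-Eb1* (-0.75), *H2-Aa* (-0.65), *H2-DMb1* (-0.43) and the invariant chain *Cd74* (-0.68), with limma adjusted p between 0.012 and 0.0344. *H2-Ab1* read 7.59, 7.18, 6.71, 7.58 and 7.48 with WUSTL0717, all below the vehicle values (7.65 to 8.44, median 8.05), and the sham libraries lay between 5.85 and 6.68 (median 6.29). The class I genes *H2-K1* (0.24) and *B2m* (0.35) did not pass as deposited (limma adjusted p = 0.255 and 0.278) and did with each library centred (limma adjusted p = 0.0284 and 0.0153), where the list had 3 calls higher and 7 lower. The list held 3, 0 and 0 calls without WUSTL0717 libraries 1, 2 and 3 in turn.

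The cytokine gene *Tnf* read 1.13, 1.10, 0.85, 1.83 and 1.92 with WUSTL0717 and 1.58 to 2.75 (median 1.96) with vehicle, where treated libraries 4 and 5 lay inside the vehicle range, and its change of -0.63 (SE 0.19) did not pass (limma adjusted p = 0.08; exact two-sided permutation p = 0.0179, unadjusted). With each library centred it passed (limma adjusted p = 0.0166). In the list of 18 inflammatory and NF-kB genes *Relb* was the 1 gene called (-0.60, limma adjusted p = 0.0299), 17 changes were negative, the median was -0.30, and with each library centred 7 were called lower and 0 higher. The list held 5 lower calls without vehicle library 2, 4 without WUSTL0717 library 4, 2 without WUSTL0717 library 5 and 0 without WUSTL0717 library 1, 2 or 3 or vehicle library 1 or 6, and its median lay between -0.44 and -0.14 with 1 library left out. By limma 0 of 28 interferon-response genes were called (4 at an unadjusted p under 0.05), 0 of 11 lymphocyte and neutrophil markers (3 unadjusted) and 0 of 12 endothelial markers (1 unadjusted). The interferon list held 2 lower calls without WUSTL0717 library 4 or vehicle library 2, and the lymphocyte and neutrophil list 1 without vehicle library 2. With each library centred 3 interferon genes were called lower and 4 endothelial markers higher, against 19.7% of all tested genes. Of 21 acute phase genes only *Saa4*, a constitutive member of its family, was called (0.55, limma adjusted p = 0.0163).

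Genes of the fetal and regenerating liver included the largest fall among list members, that of the imprinted transcript *H19* (chromosome 7, 142575529 to 142578143). It read 0.41, 0.49, 0.71, 1.98 and 0.75 with WUSTL0717, between 1.63 and 4.17 (median 2.55) with vehicle and between -0.17 and -0.01 (median -0.09) after sham surgery, with library 4 inside the vehicle range, and the change was -1.84 (SE 0.37, limma adjusted p = 0.0128). *Cd24a* changed by -1.08 and *Sox4* by -0.72 (limma adjusted p = 0.0175 and 0.0184), *Afp* did not pass (change 0.14, limma adjusted p = 0.788), and 3 of 7 were called in all, against 1, 0 and 0 without WUSTL0717 libraries 1, 2 and 3 in turn and 5 without library 4. All 24 cell cycle genes had negative changes (median -0.40), 9 had an unadjusted p under 0.05 and limma called 0, against 5 lower without WUSTL0717 library 4 and 3 lower with each library centred. The list's median lay between -0.58 and -0.26 with 1 library left out.

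**Figure D4:**
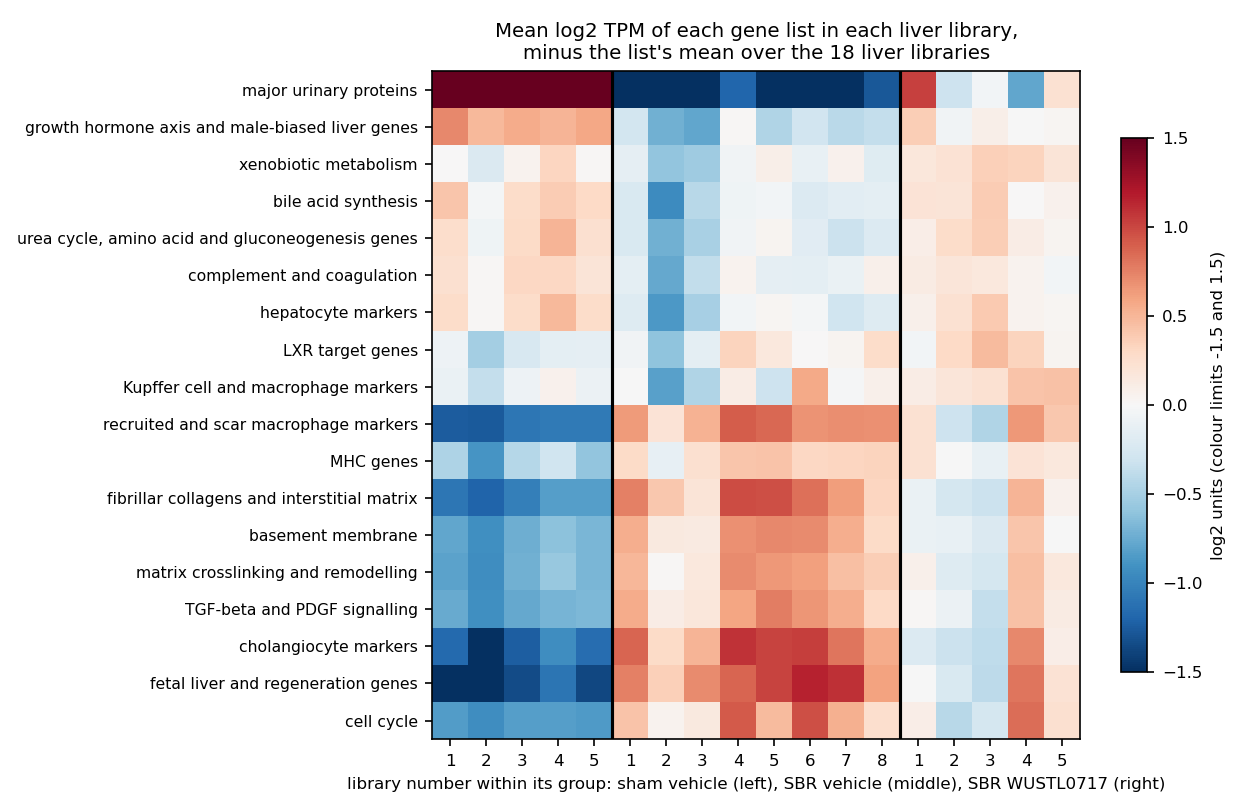
Mean log2 TPM of 18 gene lists in each of the 18 liver libraries, after subtracting the list's mean over these libraries; red is above and blue below it, with colours saturating at 1.5 log2 units. Treated libraries 1, 2, 3 and 5 lie between vehicle and sham for the collagen and cholangiocyte lists, treated library 4 resembles the vehicle libraries there, and vehicle library 2 is low in the hepatocyte, bile acid and Kupffer cell lists.

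The plot of lists by library also shows that the libraries of each group were not alike. Treated library 4 had the highest treated value for *Col1a1*, *Col3a1*, *Cldn4*, *Krt7*, *Spp1* and *H19* and the lowest for *Mup10*, *Mup3*, *Sult2a8* and *Cyp8b1*. In vehicle library 7, 9 pancreatic acinar genes averaged 7.31, against 2.05 to 2.25 in the other 17 liver libraries, and the lipase gene *Pnlip* was 7.17 there. Their part in the results was not tested beyond leaving that library out, which gave 462 calls, 11 in the collagen list, 9 in the cholangiocyte list and 9 in the MUP list. Summed erythroid marker TPM was 106 to 199 with WUSTL0717, 67.5 to 610 with vehicle and 78.9 to 236 after sham surgery. Of 5 such markers *Alas2*, which encodes erythroid aminolevulinate synthase, was called (0.50, limma adjusted p = 0.0214), while the other 4 changes were negative (list median -0.38). Of 12 intestinal epithelial markers *Vil1*, also expressed by bile duct cells, was called (-0.69, limma adjusted p = 0.0149).

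Of 22 LXR target genes tested in liver, 1 was called higher and 0 lower, and 7 had an unadjusted p under 0.05. In this list 19 changes were positive and 3 negative, with a median of 0.23. With 1 library left out the median lay between 0.14 and 0.31, and limma called 3 higher without vehicle library 4, 2 higher and 1 lower without vehicle library 2, 2 higher without WUSTL0717 library 4 and 0 without WUSTL0717 library 1, 2 or 3. The gene called was *Mlxipl*, which encodes the glucose-sensing lipogenic factor ChREBP, with 7.44, 7.32, 7.22, 7.16 and 7.39 in treated and 6.65 to 7.15 (median 6.93) in vehicle libraries and a change of 0.38 (SE 0.08, limma adjusted p = 0.0173; 0.0645 without WUSTL0717 library 1). *Abca1* read 5.82, 6.04, 6.26, 6.18 and 5.76 with WUSTL0717, between 5.36 and 6.33 (median 5.96) with vehicle and between 5.66 and 6.15 (median 6.09) after sham surgery, and its change was 0.07 (SE 0.14, limma adjusted p = 0.877). For *Srebf1* the values were 6.62, 7.95, 8.09, 7.52 and 6.59 against 6.69 to 7.62 (median 7.06), with a change of 0.22 (SE 0.25, limma adjusted p = 0.746), and for the desaturase *Scd1* 9.81, 10.38, 10.73, 10.53 and 10.13 against 8.999 to 10.75 (median 9.97), with a change of 0.32 (SE 0.24, limma adjusted p = 0.563). The groups overlapped in all 3. *Lpl*, the lipoprotein lipase, had a change of -0.47 (SE 0.15) and *Pltp* of 0.68 (SE 0.21), and neither passed (limma adjusted p = 0.102 and 0.0743).

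The effect of WUSTL0717 on these genes in liver was set against its effect in the gut of SBR mice (4 treated and 4 vehicle libraries in each region), as a test of the difference of the effects in 1 model per pair of tissues. The model took liver and gut libraries as independent. The sample titles do not say whether tissues came from the same mice. Against the ileum, 100 of 15718 genes (0.636%) differed in their response, 64 of them (0.407%) with the lower effect in liver. Of the 22 LXR targets 11 were among these, all with the lower effect in liver. The effect on *Abca1* was 2.79 in ileum and 0.07 in liver, a difference of -2.72 (SE 0.32, limma adjusted p = 2.23e-05). For *Abcg1*, the partner exporter, it was 2.30 against -0.05, for *Srebf1* 3.39 against 0.22 and for *Scd1* 3.09 against 0.32 (limma adjusted p of the differences = 6.73e-05, 0.00238 and 0.00179).

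The sterol exporters *Abcg5* and *Abcg8*, *Mylip*, *Apoc1*, *Apoe*, *Lpl* and *Scd2* made up the rest. Against the duodenum 174 of 15047 genes (1.16%) differed, 122 of them (0.811%) lower in liver, and 6 of the 22 LXR targets were called, again all lower in liver. *Scd1* had a change of 6.34 in duodenum and 0.32 in liver (difference -6.02, limma adjusted p = 1.52e-07), and *Abca1* one of 3.55 and 0.07 (difference -3.48, limma adjusted p = 1.54e-05). With any 1 library left out, between 9 and 12 LXR targets were called against ileum and between 6 and 9 against duodenum. With the library number added to the model as a block, 8 were called against ileum and 4 against duodenum. ComBat rescales genes separately in each batch, so if batch and tissue coincide, as the values read, the sizes of these differences may be distorted.

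The *Abca1* promoter shows the kind of site through which LXR acts, a direct repeat with a spacer of 4 bases (DR4). The 250 bases before its start (RefSeq, GRCm38.p6, minus strand, chr4:53159896-53160145) are printed 5′ to 3′, with the match to the LXR response element of the DR4 type, which lies on the reverse strand, in capitals.
Abca1: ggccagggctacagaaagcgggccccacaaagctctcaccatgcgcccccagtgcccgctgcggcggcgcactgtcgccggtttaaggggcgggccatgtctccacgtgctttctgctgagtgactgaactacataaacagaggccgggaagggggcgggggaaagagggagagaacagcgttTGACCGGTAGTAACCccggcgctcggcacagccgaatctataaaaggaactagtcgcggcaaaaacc
The match begins 67 bases before the start site. The pattern searched kept the capital letters except at 4 positions, where any base was allowed, and it occurred in 6 of the 12379 promoters (0.0485%). Other forms of the DR4 repeat were not searched, so this is not the share of promoters with an LXR site. Whether LXR acts through the printed site was not tested.

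**Figure D5:**
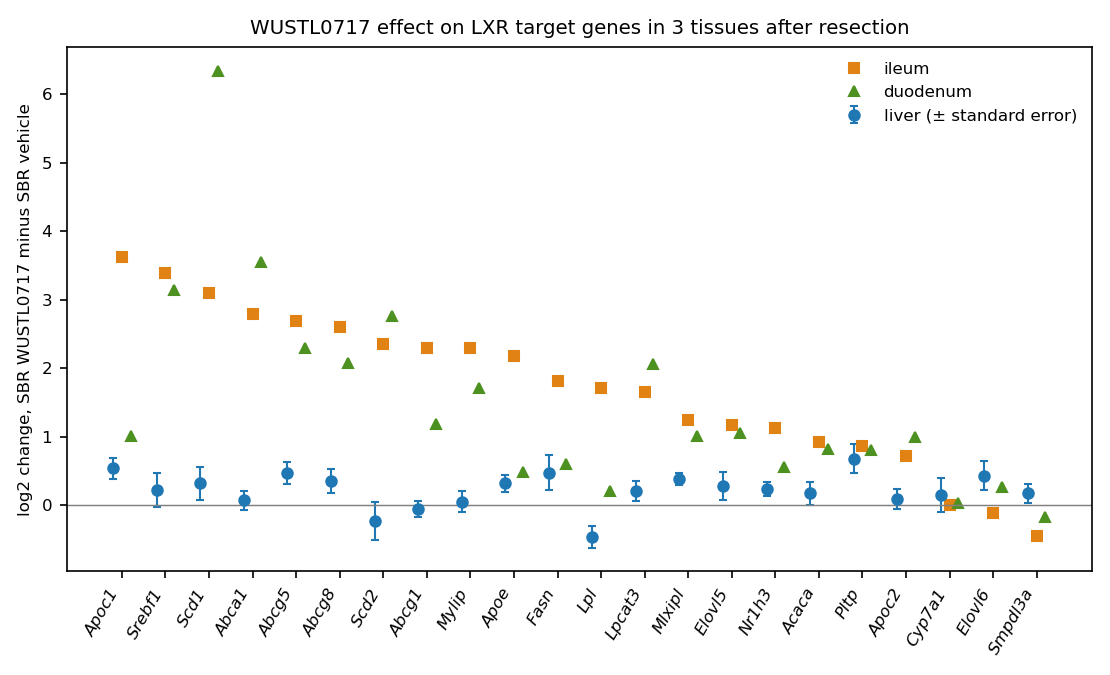
Change with WUSTL0717 after SBR, in log2 units on the vertical axis, for the 22 LXR target genes, in liver (circles, with standard error), ileum (squares) and duodenum (triangles), ordered by the ileal change. Liver changes lie between -0.47 (*Lpl*) and 0.68 (*Pltp*), whereas ileal changes reach 3.62 (*Apoc1*) and duodenal ones 6.34 (*Scd1*).

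Lipid genes outside the LXR list are given against the 4.1% of all tested genes that were called. Of 24 cholesterol synthesis and uptake genes limma called 0 (5 at an unadjusted p under 0.05), although all 24 changes were positive (median 0.29). Of 19 fatty acid and triglyceride synthesis genes the 1 called was *Mlxipl*, and all 19 changes were positive (median 0.29). With each library centred 4 genes of each list were called higher and 0 lower, against 19.7% of all tested genes. Lipoprotein genes too had only positive changes (median 0.33, 12 at an unadjusted p under 0.05). Of 20 lipoprotein genes *Lipc*, hepatic lipase, was called (0.41, limma adjusted p = 0.0454), while *Apoa1*, the main protein of HDL, was 13.83, 14.12, 14.41, 13.88 and 13.85 in treated and 13.09 to 14.12 (median 13.94) in vehicle libraries (change 0.18, SE 0.19, limma adjusted p = 0.709). Phospholipid synthesis gave 1 call each way, *Chpt1* (0.53) and *Lpcat4* (-0.67).

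The thyroid hormone receptor gene *Thrb* read 4.05, 4.02, 4.14, 3.96 and 3.93 with WUSTL0717, between 3.30 and 4.00 (median 3.77) with vehicle and between 4.00 and 4.35 (median 4.15) after sham surgery. Treated libraries 4 and 5 lay inside the vehicle range, and the change of 0.32 (SE 0.11) passed with each library centred (limma adjusted p = 0.0019) but not on the values as deposited (limma adjusted p = 0.116). Of 17 thyroid receptor and target genes *Dio1*, which activates the hormone, was called (0.61, limma adjusted p = 0.0399; 0.134 without WUSTL0717 library 3), and with each library centred 7 of the list were called higher and 2 lower. The list held 0 calls without WUSTL0717 library 1, 2, 3 or 5 or vehicle library 1, 6 or 7 and 2 without vehicle library 2, 4 or 8. Antioxidant genes gave 2 calls of 30 (6.67%, near the 4.1% of all tested genes), both higher, 0 without WUSTL0717 library 1, 2 or 3 and 1 without WUSTL0717 library 5 or vehicle library 1 or 3, while with each library centred 10 were called higher and 1 lower. Catalase (*Cat*) read 10.10, 9.89, 10.08, 9.84 and 9.90 with WUSTL0717, above all vehicle values (8.86 to 9.61, median 9.52), and rose by 0.55 (SE 0.12, limma adjusted p = 0.0178; 0.0711 without WUSTL0717 library 3), and *Mgst1* rose by 0.48. The superoxide dismutases *Sod1* (0.32) and *Sod2* (0.31) did not pass as deposited (limma adjusted p = 0.113 and 0.156) and did after centring (limma adjusted p = 0.000688 and 0.000744), and all 5 *Sod2* values with WUSTL0717 were above the vehicle range.

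With the 2 compared groups fitted alone, which gave 148 calls in all (58 higher, 90 lower), most lists held fewer: 6 of 19 collagen and interstitial matrix genes were called, 4 of 15 cholangiocyte markers, 1 of 15 basement membrane genes, 3 of 18 crosslinking genes, 2 of 23 TGF-beta and PDGF genes and 2 of 17 MHC genes. In the other lists, that fit called 5 of 33 drug- and steroid-metabolizing enzymes, 4 of 25 male-biased genes, 1 of 12 bile acid synthesis genes and 1 of 23 urea cycle and amino acid genes, and 9 of 10 MUP genes.

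With each library centred on its own median, every list median moved by the same small amount (from 0.02 to 0.03 over all tested genes) and more members passed, against 19.7% of all tested genes. The bile acid synthesis list then had 9 higher and 0 lower calls of 12, the urea cycle and amino acid list 18 higher and 0 lower of 23, complement and coagulation 17 higher and 0 lower of 30, lipoprotein genes 14 higher and 0 lower of 20 and fatty acid oxidation 13 higher and 0 lower of 21. Subunits of oxidative phosphorylation showed the widest gap between the scalings: all 24 changes were positive (median 0.27), limma called 0 as deposited (12 at an unadjusted p under 0.05) and 21 higher after centring. The LXR target list had 6 higher and 1 lower calls of 22, the TGF-beta and PDGF list 0 higher and 13 lower of 23, the crosslinking list 1 higher and 12 lower of 18, the basement membrane list 1 higher and 13 lower of 15, hepatocyte markers 13 higher and 0 lower of 17 and Kupffer cell markers 6 higher and 0 lower of 13. Cytosolic ribosomal proteins gave 0 calls of 32 under both scalings by limma, with 0 at an unadjusted p under 0.05 as deposited. Of the remaining lists, ER stress gave 1 call of 18, *Herpud1*, a target of the unfolded protein response (0.68, limma adjusted p = 0.043), Notch and YAP genes 1 of 15, the Notch ligand *Jag2* (-0.49, limma adjusted p = 0.0151), and by limma the circadian clock gave 0 of 19 (2 unadjusted) and immediate early genes 0 of 22 (4 unadjusted).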

How the data were processed

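RNA from liver, duodenum and ileum was sequenced after removal of ribosomal RNA. Per the labels and the study's methods, the authors aligned reads with STAR to Ensembl release 101 of GRCm38, counted unambiguous unique reads per gene with featureCounts, scaled them by TMM in edgeR, converted them to TPM, and batch-corrected the log2 values with ComBat. The deposited table holds log2 TPM of 15958 genes in 40 libraries, and 0 columns belong to no sample. Its header lacks 1 field, so columns were read by number. The counts were not used here, so depth per library is unknown and no counting interval could be given. The study's methods do not name the batches, and the values read as if tissue and batch coincide.

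The liver fit used limma 3.58.1 in R 4.3.3 with a variance trend on 18 libraries in 3 groups, Benjamini-Hochberg adjustment and a threshold of 0.05, for genes with a mean of at least 1. With simulated data, 88.5% of 200 genes changed by 1 log2 unit and 98.5% of those changed by 2 were recovered, with 6 and 8 false calls among 15901 genes. Those data had independent normal noise in each gene and no library-wide shifts or outlying libraries. The rates therefore need not hold for the real libraries. Single genes were also tested by an exact two-sided permutation test of 5 against 8. TPM for sums were 2 to the power of the value, minus 1. Named genes were those the study names for liver, the 15 higher and 15 lower named genes with the smallest p and no overlap, the leading members of each list, LXR targets and markers of other tissues. Members and lists were chosen with earlier results of these data known, so lists are described by counts and medians. Alternatives were filters, pseudocounts of 5 and 0.1, centring, quantile normalization, library weights, no trend, an unmoderated test, the 2 groups alone, a replicate block, a fold threshold and leaving out each library. Promoters came from RefSeq tables (GRCm38.p6) and gene positions from GENCODE M21. The reads and the authors' counts were not analysed here. Some genes of the lists are not reported here.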

Additional observations from a re-analysis of the deposited data

Results flagged for a closer look

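In groups of 5 or 8 liver libraries, 1 library lay far from the rest of its group in 15 genes (*Mup15* in 2 groups) and 1 list mean. With 202 groups examined over 67 genes, chance alone gives such a gap in about 1 of 20 groups. Among treated libraries, library 4 was far above the others in *Spp1* (6.31), *Dnm1* (3.84) and *H19* (1.98), and library 3 far below them in *Sox9* (2.97). Among vehicle libraries, library 2 stood low in *Nat8f5* (3.19) and apart in *Lcn2* (3.38), library 4 high in *Mup15* (0.85), library 5 high in *Cx3cr1* (3.97), and library 6 high in *Tnf* (2.75) and *Cldn4* (6.15). Among sham libraries, library 2 stood apart in *Cyp2f2* (5.76) and *Abca1* (5.66), library 4 in *Krt7* (2.34), *Mup15* (5.51) and *Mup17* (3.28), and library 5 in *Col1a1* (4.60). Vehicle library 7 had a mean of 7.31 over the pancreatic acinar genes.

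The effect of WUSTL0717 differed between liver and ileum in 11 LXR target genes, by limma's test of the difference. Liver minus ileum was -3.17 for *Srebf1*, -3.08 for *Apoc1*, -2.78 for *Scd1*, -2.72 for *Abca1*, -2.59 for *Scd2*, -2.35 for *Abcg1*, -2.25 for *Abcg8* and *Mylip*, -2.22 for *Abcg5*, -2.18 for *Lpl* and -1.86 for *Apoe*. Liver minus duodenum was -6.02 for *Scd1*, -3.48 for *Abca1*, -3.001 for *Scd2*, -2.91 for *Srebf1*, -1.85 for *Lpcat3* and -1.67 for *Mylip*, the 6 called there.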

How the results depend on the processing

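The count of 652 genes was 3133 with each library centred, 2635 after quantile normalization, 2819 with library weights, 2440 by an unmoderated test on centred values (chosen after seeing the data), 334 among genes with a mean of at least 3, 148 in the 2 groups alone, 90 at an unadjusted p and a change of at least 1, and 0 by the unmoderated test on deposited values (2223 unadjusted), and it lay between 93 and 1075 with 1 library left out. The causes were not tested. Without a filter it was 655, without a variance trend 650, and with pseudocounts of 5 and 0.1 665 and 610. The difference from ileum (100 genes) was 60 at a mean of at least 3, 402 centred and 342 with weights, and between 66 and 594 with 1 library left out; that from duodenum (174) was 409 centred and 277 with weights, and between 127 and 468. The MUP median of 1.70 became 0.86 with a pseudocount of 5 and 3.74 with 0.1. The replicate block gave 485 genes in liver, 40 for the difference from ileum and 100 for that from duodenum. In liver, same-numbered treated and vehicle libraries did not deviate together (correlations -0.05 to 0.10, with 0 of 5 closest to its own number), so these liver samples share only a number. Whether same-numbered gut libraries, or liver and gut libraries, deviate together was not tested. Genes not called turned sign: *Abca1* was -0.00602 after quantile normalization, -0.12 with weights and -0.0144 to 0.13 with 1 library left out, *Srebf1* -0.12 with weights, *Cyp7a1* -0.11 with weights and -0.0444 to 0.27 with 1 library left out, and *Apoa1* -0.0244 with weights. Of 67 genes examined, 53 were called, and all 53 kept their call when centred, 52 by the unmoderated test on centred values, 40 in the 2 groups alone and 0 by the unmoderated test as deposited. Over 26 settings their results were unchanged in 1507 cases, weaker in 170, stronger in 33 and of the other sign in 7. Unknown depth means that low values, such as MUP genes under vehicle, carry an error that cannot be stated.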
